A study of Mus musculus with 6 samples.

Results

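Multi-copy peaks outside the LINE families are ATAC-seq peaks that lie in sequence present many times in the mouse genome but that do not belong to the LINE-associated peak families of these cells. Members were the peaks on chromosomes 1 to 19 in which at least 50% of the 24-base words of the mm9 sequence occurred 10 or more times in mm9 on either strand, and which had no match of at least 80% identity over 100 bp to mm9 chr19:9828174-9828978 or chr4:10661590-10662538, the peaks that stand for those LINE families. The rule uses sequence and position only, not the height of a peak. It took 528 of the 22457 autosomal peaks of the Spen KO clone 3 list (23722 peaks in all) and 501 of the 21698 autosomal peaks of the WT list (22753 in all), thus 1029 of 46475 peaks. Overlapping peaks of both lists merged into 688 positions. The threshold had no gap around it, with 202 peaks at 50 to 55% of multi-copy words just inside and 281 at 45 to 50% just outside.

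The peaks come from haploid mouse embryonic stem cells (mESCs) of a mixed genomic background that carry an Xist transgene under doxycycline control, either WT (HATX WT) or with Spen deleted (Spen KO clone 3, a single clone). The 6 sample records give WT, Spen KO clone 2 and Spen KO clone 3, each without doxycycline and after 48 hr of 2 ug/ml. Neither list says whether its cells had received doxycycline, and Spen KO clone 2 was not analysed here. For each line the authors combined the peaks of 2 technical replicates into 1 list by the Irreproducible Discovery Rate (IDR), so no difference between the lines has a replicate check and none was tested. The read depth is unknown. Intervals below are 95% intervals and cover counting error only. A single clone and a single list cannot separate the deletion from other differences between the lines. Each list had 1 peak at the Spen start, which does not check the knockout label, and among stem cell genes each list had 1 peak at the Pou5f1 start, 2 at the Zfp42 start and none at the Nanog start, while Sox2 had a start peak in WT only and Klf4 in clone 3 only.

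Repeated sequence in the mouse genome includes endogenous retroviruses (ERVs), whose long terminal repeats (LTRs) carry promoters, satellite arrays around centromeres, the telomeric repeats, and clusters of genes that arose by duplication. In mESCs most ERVs are held silent by histone methylation that zinc finger proteins target to them. Spen is an RNA-binding repressor that is required for silencing by Xist. Accessibility at such sequence is hard to measure, since a read that maps to several copies has no single origin. The authors' peak calling used uniquely mapping reads, which can leave multi-copy peaks under-called. They also made alignments in which a read with several possible places was put at 1 of them at random, and the lists do not say which alignments they rest on. Whether a copy is as common in these cells as in mm9 was not tested.

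The members grouped into a few sequence families. A family was built around the member with the most matches of 80% identity over 100 bp, and 34 families of at least 4 peaks held 929 of the 1029 members (90.3%), while the 8 largest held 646 (62.8%). The middle 200 bases of the peak that stands for each of 6 of these families are printed here, 5′ to 3′ on the plus strand of mm9, to show what kind of sequence they hold. Capitals mark bases that lie in at least one 24-base word with 10 or more copies, and lower case marks the rest. The element named for a family is the best match within the whole peak. It covered all 200 printed bases for family 4, 149 for family 5 and 160 for family 7. The family 2 peak matched B2_Mm1a, a short interspersed element (97.2% over 143 bp), and 37 of the printed bases lay in that match. B2_Mm1a was the best match of only 9 of the 125 peaks of family 2. For family 1 the match to LTRIS2 (91.4% over 476 bp) lay in the peak but in 0 of the printed bases, so a second peak of that family is shown, its highest clone 3-only member, in which the match covered all 200.

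Family 1 (peak matching LTRIS2, window outside the match), chr1:84329237-84329436: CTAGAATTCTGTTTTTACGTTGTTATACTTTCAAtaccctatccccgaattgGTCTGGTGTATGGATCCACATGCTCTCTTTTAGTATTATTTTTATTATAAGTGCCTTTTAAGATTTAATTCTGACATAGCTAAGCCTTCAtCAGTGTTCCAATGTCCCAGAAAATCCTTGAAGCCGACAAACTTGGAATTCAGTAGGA
Family 1 (second peak, LTRIS2, an ERV1 LTR), chr3:138838237-138838436: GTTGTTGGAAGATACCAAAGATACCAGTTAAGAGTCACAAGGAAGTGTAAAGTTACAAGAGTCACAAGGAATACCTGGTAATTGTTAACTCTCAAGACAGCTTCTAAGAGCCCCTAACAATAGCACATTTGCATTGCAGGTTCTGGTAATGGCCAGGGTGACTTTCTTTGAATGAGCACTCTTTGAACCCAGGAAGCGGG
Family 2 (beside LINE sequence, with a B2_Mm1a stretch), chr6:96826742-96826941: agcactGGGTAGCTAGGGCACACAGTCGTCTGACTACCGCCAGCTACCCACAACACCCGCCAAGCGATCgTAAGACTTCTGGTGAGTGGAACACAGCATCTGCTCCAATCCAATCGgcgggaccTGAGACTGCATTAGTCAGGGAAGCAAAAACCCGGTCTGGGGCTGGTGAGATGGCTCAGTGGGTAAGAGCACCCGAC
Family 4 (MMETn-int), chr17:40720987-40721186: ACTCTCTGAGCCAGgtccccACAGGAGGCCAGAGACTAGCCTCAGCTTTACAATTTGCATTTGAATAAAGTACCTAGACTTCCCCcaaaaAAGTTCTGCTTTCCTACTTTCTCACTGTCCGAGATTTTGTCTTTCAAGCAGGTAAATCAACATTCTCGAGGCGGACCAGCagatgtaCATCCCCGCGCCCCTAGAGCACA
Family 5 (RLTR13G, an ERVK LTR), chr3:52917699-52917898: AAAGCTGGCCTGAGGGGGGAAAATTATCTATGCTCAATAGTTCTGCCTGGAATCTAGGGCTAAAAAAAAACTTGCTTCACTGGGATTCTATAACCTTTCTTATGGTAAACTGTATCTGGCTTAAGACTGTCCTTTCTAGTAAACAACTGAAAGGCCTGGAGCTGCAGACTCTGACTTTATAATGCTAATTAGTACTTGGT
Family 6 (array beside Ezh2), chr6:47605085-47605284: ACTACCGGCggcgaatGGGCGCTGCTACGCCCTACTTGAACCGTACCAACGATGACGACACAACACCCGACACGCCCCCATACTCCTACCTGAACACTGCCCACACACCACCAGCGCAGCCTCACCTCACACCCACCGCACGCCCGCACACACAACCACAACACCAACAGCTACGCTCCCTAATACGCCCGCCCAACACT
Family 7 (GSAT_MM, the major satellite), chr9:3000707-3000906: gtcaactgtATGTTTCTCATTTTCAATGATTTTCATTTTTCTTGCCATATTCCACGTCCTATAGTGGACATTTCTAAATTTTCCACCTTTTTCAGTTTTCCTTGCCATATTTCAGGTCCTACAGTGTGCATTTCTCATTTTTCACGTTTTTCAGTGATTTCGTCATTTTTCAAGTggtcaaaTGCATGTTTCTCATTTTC

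Family 3 is a gene array on chromosome 2, and its printed pair shows how little distinguishes one copy from the next. The first is at the start of Gm4631 in a shared peak and the second at the start of Gm8898 in a WT-only peak. Over 120 bases they differed at 2 positions (98.3% identity), and here capitals mark those positions instead.

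Gm4631, chr2:175163728-175163847, shared: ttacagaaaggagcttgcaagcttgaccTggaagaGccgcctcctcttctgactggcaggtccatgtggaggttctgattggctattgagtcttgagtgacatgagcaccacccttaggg
Gm8898, chr2:175930215-175930334, WT-only: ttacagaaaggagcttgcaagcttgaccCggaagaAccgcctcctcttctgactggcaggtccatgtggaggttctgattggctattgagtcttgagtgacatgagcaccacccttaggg

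The rule was compared across 3 sets, namely shared members, WT-only members and clone 3-only members, where shared means an overlap of at least 1 bp with a peak of the other list. Of the clone 3 members, 159 of 528 overlapped no WT peak (30.1%, 26.4 to 34.2). The background for this count was 28.4% of all autosomal peaks of that list, and 26.0% once peaks of the LINE families were left out. Of the WT members, 128 of 501 overlapped no clone 3 peak (25.5%, 21.9 to 29.5), against 26.0% of all autosomal peaks of that list and 26.4% outside the LINE families. The WT share was near both of its backgrounds. The interval of the clone 3 share held the 28.4% of all peaks but lay above the 26.0% outside the LINE families. The intervals of the 2 shares overlapped, and their order depended on the rule. With 30% of the words multi-copy the clone 3 share was the higher, at 30.6% (28.2 to 33.1) against 20.1% (17.9 to 22.5), as it was with at least 5 copies, at 29.5% (26.6 to 32.5) against 23.1% (20.3 to 26.1), and with LINE families at 90% identity, at 47.4% (44.8 to 50) against 19.7% (17.3 to 22.5). With 80% of the words multi-copy, 27.8% of the clone 3 members and 37.2% of the WT members were found in 1 list (45 and 67 members), and with words of 36 bases 29.6% and 33.1% were (79 and 91). The other 369 clone 3 members were shared, and the WT partner was itself a member for 341 of them (92.4%).

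Multi-copy peaks of the LINE families stood apart from the members in this measure. There 929 of 1493 peaks were clone 3-only (62.2%, 59.7 to 64.6), which was 32.1 percentage points above the members (27.4 to 36.6). In the WT list 90 of 655 were WT-only (13.7%, 11.3 to 16.6), a difference of -11.8 points from the members (-16.5 to -7.20). Neither interval included 0. Members made up 2.49% of all clone 3-only peaks (2.14 to 2.90) and 2.27% of all WT-only peaks (1.91 to 2.69), and the difference of 0.223 points had an interval of -0.328 to 0.769. With LINE family peaks left out of the totals the shares were 2.92% and 2.30%, and the difference of 0.614 points had an interval of 0.0172 to 1.22. The lean of members toward clone 3 therefore depended on the denominator.

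The sets differed in where their members lay. Only 8 of 159 clone 3-only members lay within 1 kb of the start of a coding transcript (5.03%, 2.57 to 9.61), while 30 of 128 WT-only members did (23.4%, 16.9 to 31.5). The difference of 18.4 percentage points had an interval of 10.5 to 26.8. Shared members lay between them, with 46 of 369 near a start (12.5%, 9.48 to 16.2). In each set this was below the share for peaks under the multi-copy threshold, here called single-copy, which was 20.3% of clone 3-only, 34.3% of WT-only and 47.6% of shared peaks. The order of clone 3-only and WT-only peaks was thus the same among single-copy peaks, and only the place of the shared peaks differed.

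Distance followed the same order. The median distance from a member to the nearest coding start was 38.6 kb for clone 3-only members (30.7 to 72.0), 14.7 kb for WT-only members (10.7 to 24.4) and 34.1 kb for shared members (26.7 to 42.0). Single-copy peaks had medians of 17.9, 7.49 and 2.08 kb in the same order of sets. Shared members were therefore far from starts, unlike the other shared peaks, and the intervals of the WT-only members did not overlap those of the other sets. By annotation, 103 clone 3-only members (64.8%) and 56 WT-only members (43.8%) were intergenic, a difference of 21.0 points (9.45 to 31.9), against 222 shared members (60.2%). Of single-copy peaks, 42.5% of the clone 3-only, 32.7% of the WT-only and 28.8% of the shared were intergenic, so clone 3-only peaks exceeded WT-only peaks there too. The window of a promoter (1000 bp before a start to 100 bp after it) held 7 clone 3-only (4.40%), 25 WT-only (19.5%) and 34 shared members (9.21%), against 15%, 28.0% and 40.8% of single-copy peaks, with clone 3-only again below WT-only in both.

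**Figure D1:**
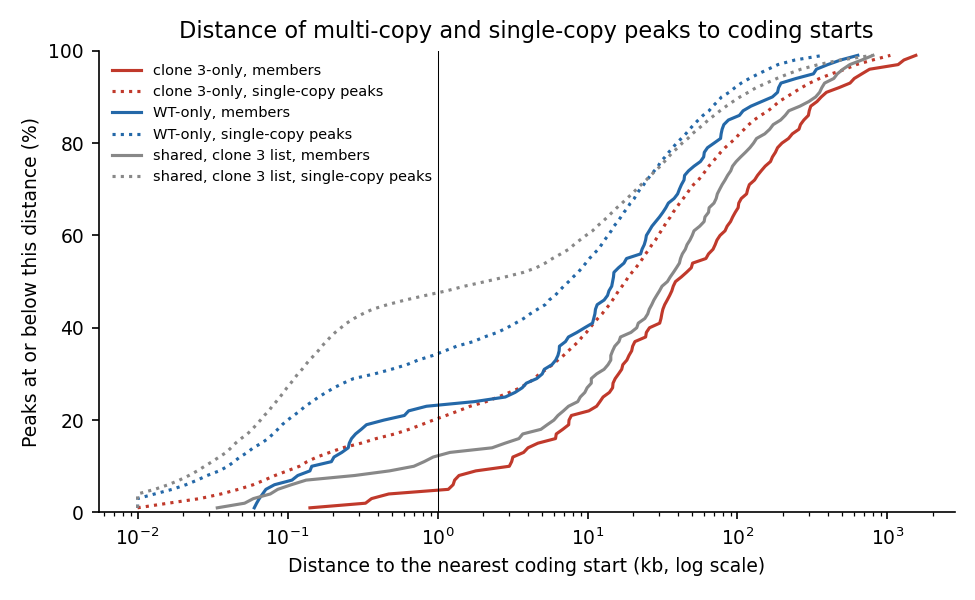
Cumulative share of peaks (%, vertical axis) at or below a distance to the nearest coding start (kb, log scale), for members and single-copy peaks of each set. The member curves lie to the right of the single-copy curves, with medians of 38.6 kb for clone 3-only, 14.7 kb for WT-only and 34.1 kb for shared members.

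The chromosome 2 array, family 3, held most of the WT-only members at starts. Without it, 13 of 108 WT-only members lay within 1 kb of a start (12%, 7.17 to 19.5), against 7 of 157 clone 3-only members (4.46%, 2.18 to 8.92) and 24 of 343 shared members (7%, 4.75 to 10.2). The share was still the higher in WT-only members. The separate intervals for WT-only and clone 3-only members then overlapped, which does not show that the difference was gone. No interval of that difference was computed without the array. The median distance without the array was 23.9 kb (14.6 to 33.4) for WT-only members, 42.0 kb (31.1 to 72.3) for clone 3-only members and 40.7 kb (30.4 to 48.1) for shared members, and these intervals overlapped.

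**Figure D2:**
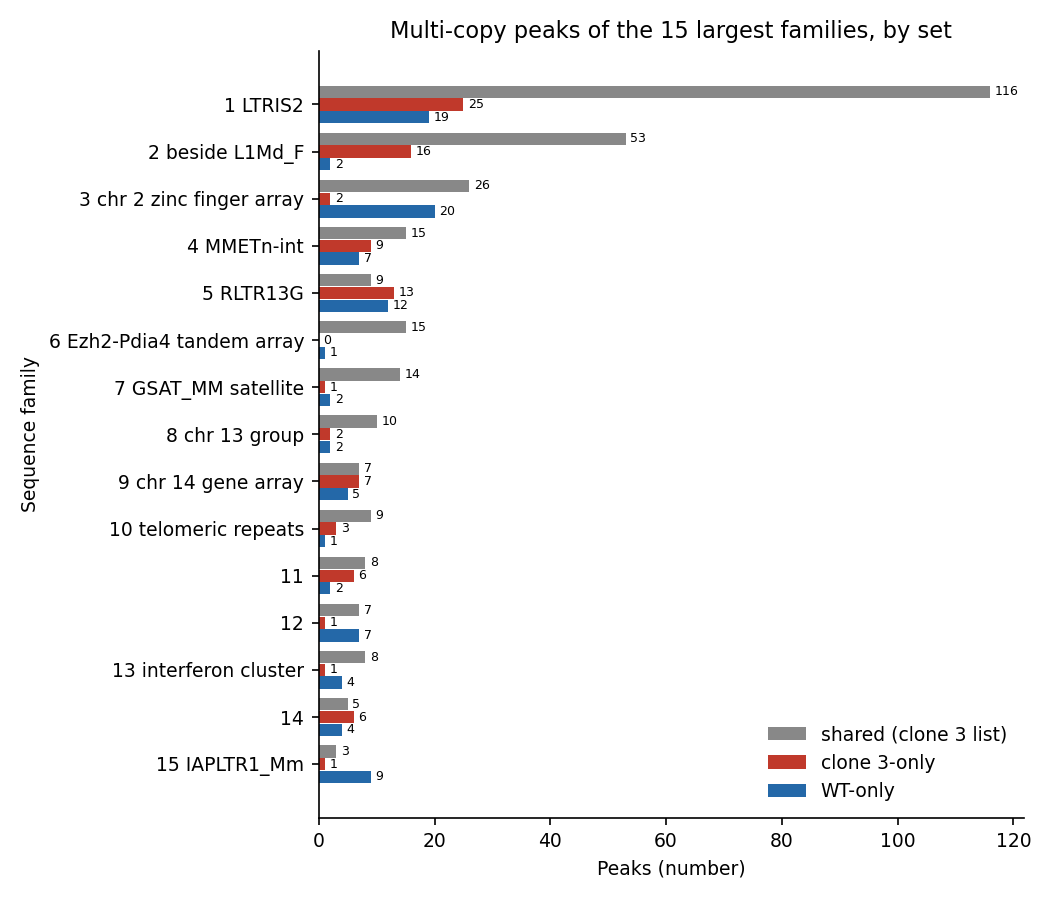
Number of peaks (horizontal axis) in each of the 15 largest sequence families (vertical axis), as clone 3-only, WT-only and shared members. Family 3 is the only one of the 3 largest with more WT-only (20) than clone 3-only (2) peaks, and family 2 has 16 clone 3-only peaks and 2 WT-only peaks.

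Family 3 held 73 peaks, 45 in WT and 28 in clone 3, all on chromosome 2 between 174964015 and 177813521. Its members sat at the starts of a cluster of genes with C2H2 zinc fingers, the DNA-binding repeats of many repressor proteins that act on ERVs. Of 73 peaks, 62 lay within 1 kb of a coding start and these were the starts of 35 genes. A protein with at least 3 matches to the C2H2 pattern was encoded by 28 of them, compared with 628 of 22737 coding genes in all (2.76%). The sequence was close to uniform, with a median identity of 96.0% to the representative (80.2 to 100), and the median member of every set had no 24-base word found once in the genome.

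At these positions the WT list was the fuller one. Of 48 positions, 25 held a peak of the family in both lists, 20 in the WT list only and 3 in the clone 3 list only. WT-only peaks were 20 of 45 (44.4%, 30.9 to 58.8) and clone 3-only peaks 2 of 28 (7.14%, 1.98 to 22.6). The difference between these shares was 37.3 points (16.7 to 52.6). Peaks that were not members in the same interval did not show it, with 2 of 31 WT-only (6.45%) and 2 of 30 clone 3-only (6.67%). Over all members there, 22 of 47 WT peaks were WT-only (46.8%).

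**Figure D3:**
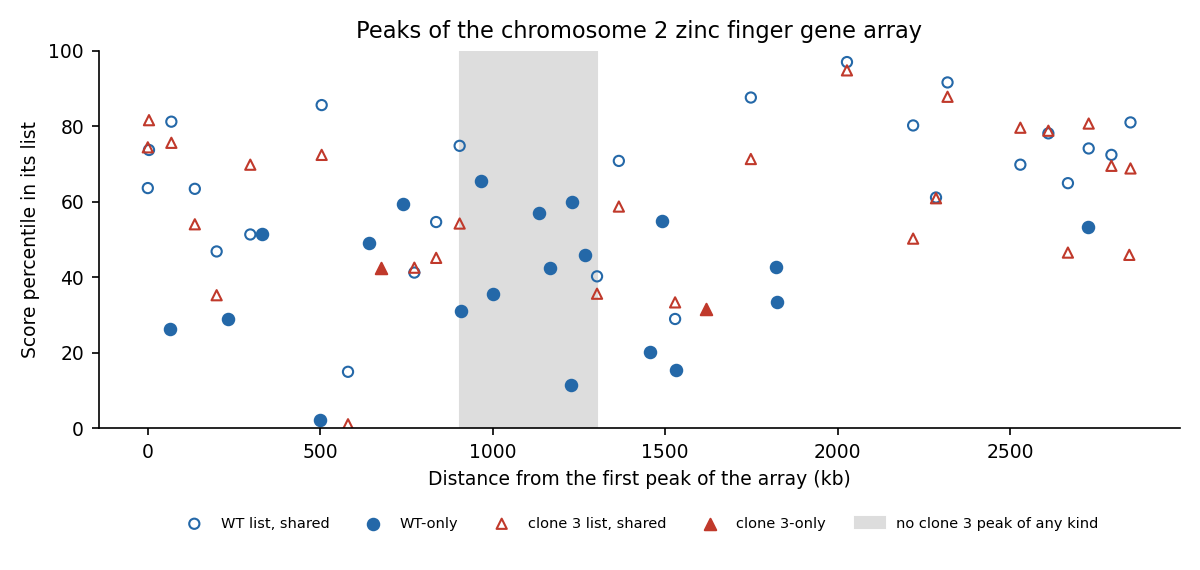
Score percentile in its list (vertical axis) of each peak of family 3 by distance from the first peak of the array (kb, horizontal axis), with open symbols for shared peaks and filled symbols for peaks of 1 list. The shaded stretch of 398 kb holds no clone 3 peak of any kind and 8 WT-only peaks in a row.

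Each peak has a value for each of its 2 replicates, on a scale that is not named, and their mean serves here as a score that is read only as a percentile within a list. The WT-only peak at Gm8898 had values of 18.7 and 28.3 and stood at the 65.4th percentile, 86 bp from the start. The next in rank was 3658 bp from the start of Gm14430, with close values of 21.6 and 21.9 (59.8th percentile). At Gm4245 the values were 28.4 and 15 (59.4th percentile), at 3694 bp from the start of Gm14432 they were 23.4 and 18.6 (56.9th), and at Gm14306 they were 28.4 and 12.8 (55th). The spread between replicates thus differed from peak to peak. WT-only peaks of the array had a median at the 42.5th percentile (2.17 to 65.4, lowest and highest), and the shared peaks of the array in WT had a median at the 70.8th. WT-only peaks thus ranked lower on the whole, and the ranges of both overlapped, since shared peaks in WT went down to 14.9.

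The longest gap in clone 3 lay between 175868559 and 176266447. There 8 consecutive WT peaks, all of family 3 and none overlapped by a clone 3 peak, stretched from 175871813 to 176232830 (361 kb). They were nearest to Gm6710, Gm8898, Gm2026, Gm14432, Gm14436, Gm14430 (2 peaks) and Gm14431. The Gm14436 peak had values of 18.7 and 17.2 (42.3rd percentile), the Gm2026 peak 17.6 and 16.1 (35.5th) and the Gm14431 peak 17.6 and 19.6 (45.8th). These 3 stood below the median of the WT list. Whether this stretch has the same number of copies in both lines was not tested. The autosomes held 3 WT-only and 5 clone 3-only runs of at least 8 peaks, the longest of 10 and 12 peaks.

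Other WT-only peaks at starts in the array were those of Gm8923 (51.5th percentile), Gm11008 (49.0th), Gm14419 (2 peaks, 42.8th and 33.5th), Gm6710 (30.9th), Gm4723 (29.0th), Gm14391 (26.3rd), Gm14308 (20.2nd), Gm14305 (15.3rd) and 2210418O10Rik (2.17th). The second peak of Gm14430 stood 208 bp from its start (11.4th). Of those in the list before 2210418O10Rik, all but Gm11008, which had 0 matches, had at least 6 C2H2 matches in their protein. The clone 3-only peaks of the array were at Gm14295, with values of 12.4 and 17.5 (31.6th percentile), and 3728 bp from the start of Gm11007. Shared peaks included some of high rank, such as that at Gm14410, with clone 3 values of 38.7 and 42.7 (94.8th percentile), and that at Gm14403, with 37.7 and 25.8 (87.8th). Etohi1 and Zfp931 at the far end had shared peaks at the 69.5th and 68.8th percentile of the clone 3 list. Shared peaks thus spanned the array from end to end.

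Outside the array, families 7, 9 and 13 held 20, 14 and 17 peaks within 1 kb of a coding start. With the array counted, WT-only members lay near the starts of 29 genes, 14 of them with C2H2 matches, and clone 3-only members at 8 genes, 2 of them with such matches. Family 13, of 21 peaks between 88403382 and 88452345 on chromosome 4, lies in a cluster of genes that includes Gm13271 and Gm13285, for which RefSeq gives the synonyms Ifnz and limitin, names of type I interferons. It had 1 clone 3-only, 4 WT-only and 8 shared peaks in clone 3. Its clone 3-only share was 11.1% (1.99 to 43.5), an interval that held the background of 28.4%. Its WT-only share was 33.3% (13.8 to 60.9), an interval that held the background of 26.0%. Its WT-only peaks were nearest to Gm13279 (values 18.3 and 17.8), Gm13283 (15.7 and 19.5), Gm13276 (18.6 and 15.8) and Gm13289 (15.8 and 13.6), and its clone 3-only peak was nearest to Gm13272 (16.3 and 10.9). These 5 peaks ranged from percentile 23.1 to 42.7 of their lists.

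Family 9, an array of GC-rich copies (median 66.4%) on chromosome 14, had 26 peaks, of which 7 were clone 3-only, 5 WT-only and 7 shared in each list. Clone 3-only peaks were 7 of its 14 clone 3 peaks (26.8 to 73.2%), an interval that held the background of 28.4%. WT-only peaks were 5 of its 12 WT peaks (19.3 to 68.0%), an interval that held the background of 26.0%. Its clone 3-only members near starts were at Gm3512 (values 14.1 and 8.97), Gm3252 (9.64 and 7.96), Gm3483 (8.30 and 7.20) and Gm3194 (8.23 and 6.54), between the 1.24th and the 14.6th percentile. Its WT-only members near starts included Gm3264 (16.2 and 17.5) and Gm3715 (10.5 and 13.4). All of these ranked in the lower part of their lists. Single members near starts were at Zfp772, a zinc finger gene (14.1 and 18.6, 40.9th percentile, clone 3-only), Gm9758 (8.21 and 10.8, clone 3-only), Bmpr1a, a receptor for bone morphogenetic proteins (13.2 and 19.6, WT-only), and 4930481A15Rik (12.8 and 16.7, WT-only).

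Members were then matched to the named repeat elements for which sequence was at hand, at 80% identity over 100 bp. Most members of each set matched none (69.2% of clone 3-only, 64.1% of WT-only and 65.0% of shared members). The elements used are 122 that the study lists with coordinates and were drawn from 1 experiment, so a member without a match can still be a known repeat. ERVK elements, the class of ERVs that includes ETn and IAP, were the best match of 25 clone 3-only members (15.7%, 10.9 to 22.2), 30 WT-only members (23.4%, 16.9 to 31.5) and 29 shared members (7.86%, 5.53 to 11.1). Among all other autosomal peaks the share was 0.129%, 0.199% and 0.140% in the same order. The ERVK share was higher in clone 3-only than in shared members by 7.86 points (2.06 to 14.7). It did not separate the WT-only from the clone 3-only members, with a difference of 7.71 points and an interval of -1.45 to 17.1.

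Within ERVK the elements differed. IAP elements (intracisternal A particles, mobile in the mouse germ line) were the best match of 3 clone 3-only, 11 WT-only and 5 shared members. The WT-only share exceeded the clone 3-only share by 6.71 points (1.58 to 13). Most of this came from IAPLTR1_Mm, the LTR of these elements, with 1 clone 3-only, 9 WT-only and 3 shared members, a difference of 6.40 points (2.05 to 12.2). ETn elements (early transposons, expressed in early embryos) had 9, 7 and 15 members. RLTR13G had 11, 7 and 8, and ERVB7_1-LTR_MM had 2, 5 and 1. MMERVK9C had none in any set, with upper bounds of 2.36% of clone 3-only and 2.91% of WT-only members.

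Family 15 held most of the IAPLTR1_Mm members. It had 17 peaks, and 9 of its 13 WT peaks were WT-only (69.2%, 42.4 to 87.3) against 1 of 4 clone 3 peaks (25%, 4.56 to 69.9). These intervals overlapped. The backgrounds were 26.0% for WT, below the first interval, and 28.4% for clone 3, within the second. Its WT-only peaks ranked low, from the 3.79th to the 23.2nd percentile, and 82.2% of their words had 10 copies or more in the median. The 2 shared WT peaks of family 19, which matched IAPEz-int in all of its 8 peaks, stood at a median of the 43.0th percentile. The highest of all WT-only members was in that family, at chr10:95623499-95624133, 187 kb from Eea1, with values of 27.8 and 21.9 (69.5th percentile) and a 98.3% match to IAPEz-int over 629 bp.

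Family 4 consisted of 46 matches to MMETn-int, with 9 clone 3-only, 7 WT-only and 15 shared peaks in each list. Its representative was a WT-only peak at chr17:40720919-40721256, 22.6 kb from Gm5494, with values of 19.3 and 14. Shares found in 1 list were 37.5% of the clone 3 peaks (21.2 to 57.3) and 31.8% of the WT peaks (16.4 to 52.7), which overlapped widely and held the backgrounds of 28.4% and 26.0%. The octamer ATGCAAAT, the sequence that Oct4 and other POU factors bind, was searched on both strands in the middle 300 bases of a peak. It was found in 42 of the 46 peaks (91.3%) and in 3.27% of all autosomal peaks, and it stood in 9 of 9 clone 3-only, 5 of 7 WT-only and 14 of 15 shared clone 3 peaks. A match is a description of the letters, not of binding.

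Family 5 had 42 peaks, 31 of RLTR13G and 11 of ERVB7_1-LTR_MM. Its shares found in 1 list were the highest in value among the 8 largest families, with wide intervals, at 13 of 22 clone 3 peaks (59.1%, 38.7 to 76.7) and 12 of 20 WT peaks (60%, 38.7 to 78.1). Both intervals lay above the backgrounds of 28.4% and 26.0%. Its peaks ranked low, with medians at the 9.34th percentile for clone 3-only, the 7.62nd for WT-only and the 30.5th for shared peaks in clone 3. The representative, at chr3:52917556-52918043 in an intron of Lhfp 72.3 kb from its start, was clone 3-only with values of 16.1 and 13.7 (31.4th percentile). The octamer was found in none of the 42.

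Family 1 was the largest, with 270 peaks (26.2% of the members) on 19 chromosomes. LTRIS2, an LTR of the ERV1 class, was the best match of 181, and 89 matched no element. Clone 3-only peaks were 25 of 141 (17.7%, 12.3 to 24.9) and WT-only peaks 19 of 129 (14.7%, 9.64 to 21.9), with a difference of -3.00 points (-11.8 to 5.96). Both were below the backgrounds of 28.4% and 26.0%. ERV1 matches made up 20.6% of shared members and 11.3% of clone 3-only members, a difference of 9.28 points (2.28 to 15.3). The family thus belonged more to the shared set than to either of the others.

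The representative of family 1, at chr1:84328724-84329951 and 48.1 kb from Pid1, was shared, with clone 3 values of 24.8 and 23.5 (74.4th percentile). The octamer was found in 183 of 270 peaks (67.8%), in 19 of 25 clone 3-only, 14 of 19 WT-only and 77 of 116 shared clone 3 peaks. The intervals of these shares overlapped, at 76.0% (56.6 to 88.5), 73.7% (51.2 to 88.2) and 66.4% (57.4 to 74.3). Among the named peaks, the highest clone 3-only member was in this family, at chr3:138838139-138838535, 30.3 kb from B930007M17Rik, with values of 23.3 and 31.9 (81.9th percentile). A WT-only member at chr5:111556543-111557090, in an intron of Ttc28, had values of 22.8 and 26.0 (68.2nd percentile). Each stood above the median of its list, so members of 1 list were not confined to the low end.

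Family 2 lies beside LINE sequence although it does not match the LINE families. Of its 125 peaks, 116 (92.8%) had at least 500 bp of L1Md_F sequence within 8 kb, and 115 matched no named element. The clone 3-only share was 16 of 69 (23.2%, 14.8 to 34.4), an interval that held the background of 28.4%, and the WT-only share 2 of 56 (3.57%, 0.985 to 12.1), an interval below the WT background of 26.0%. The WT-only minus the clone 3-only share was -19.6 points (-31.1 to -7.65). Members of any family beside L1Md_F sequence were 33 clone 3-only (20.8%), 12 WT-only (9.38%) and 81 shared (22.0%), and clone 3-only exceeded WT-only by 11.4 points (2.97 to 19.4). The representative was a clone 3-only peak at chr6:96826638-96827047, in an intron 184 kb from the start of Fam19a4, with values of 10.2 and 11.4 (12th percentile).

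For the shared members, the rank of a peak in one list could be set beside its rank in the other. The rank shift is the percentile in clone 3 minus the percentile of the overlapping peak in WT, and a positive value means a higher rank in clone 3. Over all 16074 shared autosomal peaks the median was -0.0883 (-0.273 to 0.0143), and 49.4% ranked higher in clone 3. The 369 shared members had a median of 4.76 (3.18 to 7.64), and 247 ranked higher in clone 3 (66.9%). The median was 3.54 with the value of replicate 1 alone and 8.01 with replicate 2. Both had the same sign.

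Shared peaks over 1 kb from a start, here called distal, ranked higher in clone 3 more often than not, whether members or other peaks. How much of the shift of the members this makes up was not tested. Distal peaks that were not members had a median of 2.81 (2.43 to 3.22) and ranked higher in clone 3 in 59.1% of cases, beside a background of 59.5% for all distal shared peaks. Distal members had a median of 6.52 (4.17 to 9.32), and 228 of 323 ranked higher in clone 3 (70.6%). The intervals of the distal medians did not overlap. Within 1 kb of starts, the median was -2.48 for 46 members (-9.41 to 0.657) and -2.88 for other peaks. Members and other peaks were alike in sign there.

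**Figure D4:**
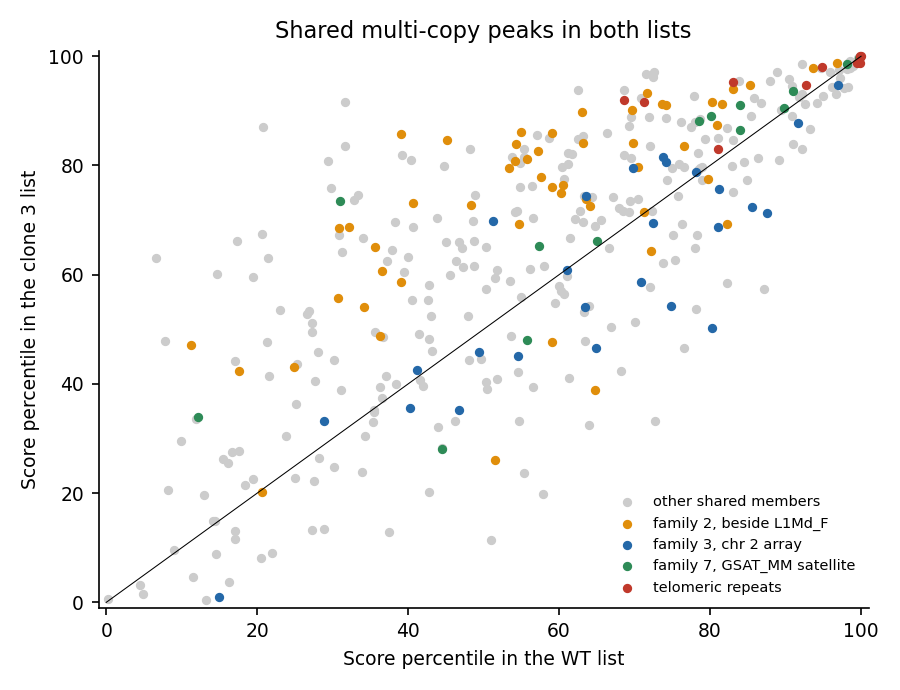
Score percentile in the clone 3 list (vertical axis) against that in the WT list (horizontal axis) for the 369 shared members. Points of families 2, 3 and 7 and telomeric peaks have their own colours. Points above the diagonal rank higher in clone 3, as do 247 of the 369.

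Families 1 and 2 carried the shift of the members. In family 2, 46 of 53 shared peaks ranked higher in clone 3 (86.8%), with a median shift of 17.6 (11.4 to 24.0). Distal shared peaks with a GC content in the middle range of the family (988 peaks) had a median of -0.696. Shared peaks of the LINE families had a median of 17.4 (15.8 to 19.0), with 486 of 564 higher in clone 3 (86.2%). Family 2, most of it beside L1Md_F, thus had a median close to that of the LINE families. In family 1, 90 of 116 ranked higher (77.6%), with a median of 8.91 (4.76 to 13.4). This was near the 7.87 (6.67 to 9.12) of 759 distal peaks of like GC content. Without both families the median over the other 200 shared members was 0.518 (-0.330 to 2.57), and 111 ranked higher (55.5%).

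**Figure D5:**
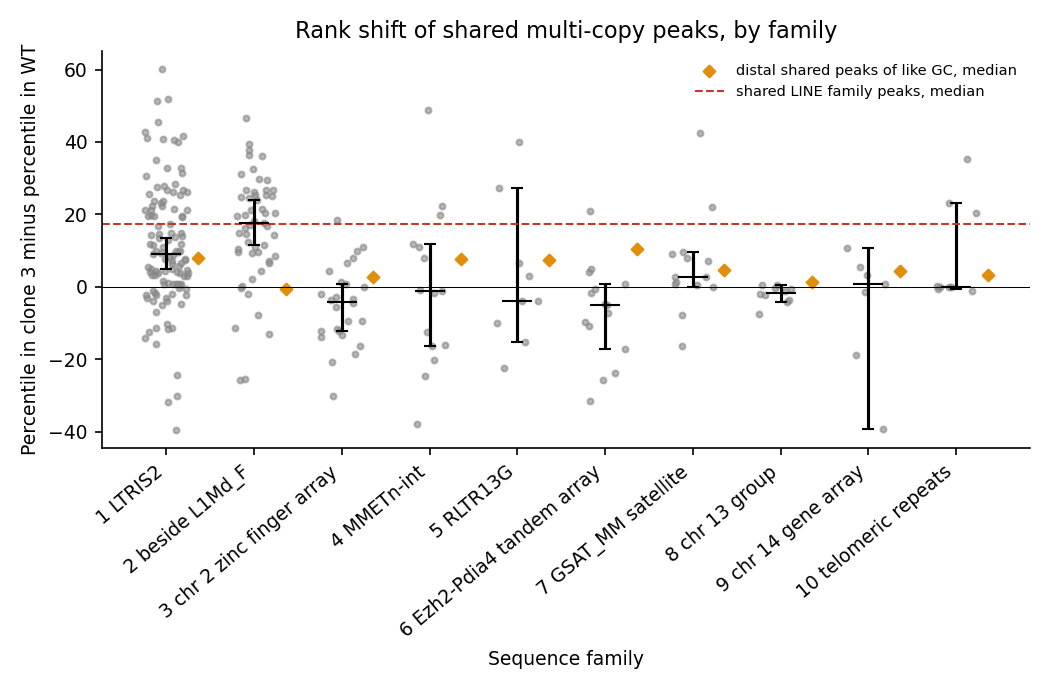
Rank shift (percentile in clone 3 minus percentile in WT, vertical axis) of shared members by family (horizontal axis), with diamonds for the median of distal shared peaks of like GC content and a dashed line for the median of shared LINE family peaks (17.4). Family 2 has the highest median shift of the 8 largest families (17.6), and families 3, 4, 5, 6 and 8 have medians below 0.

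The remaining large families had smaller shifts with wide intervals. Shared peaks of family 3 had a median of -4.17 (-12.1 to 0.657), with 8 of 26 higher in clone 3, those of family 4 -1.27 (-16.5 to 11.9) and those of family 5 -3.81 (-15.4 to 27.2). Each interval included 0. Distal peaks of like GC content had medians of 2.82 (1.79 to 3.98), 7.60 (5.88 to 9.36) and 7.39 (6.44 to 8.35) in the same order. The interval of family 3 lay below that of these distal peaks, though most of its own peaks were near starts. Family 8, with 25 of its 28 peaks on chromosome 13, had a median of -1.62 (-4.27 to 0.483) at the 93.4th and 93.8th percentile in clone 3 and WT.

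Family 6 was an array on chromosome 6 between 47604841 and 47722497, near Ezh2, in which neighbouring peaks lay a median of 4.36 kb apart in clone 3 and 4.38 kb in WT, with 1 gap of 54.6 kb in each. RefSeq, in the later build GRCm38.p6, places the 4.5S RNA gene Rn4.5s and the Y RNA genes Rny1 and Rny3 between Ezh2 and Pdia4. Of its 31 peaks, 15 were shared in each list and 1 was WT-only. The median GC content was 63.4% and the median identity to the representative 98.7%. The motif GTTCGA, the core of the B box in promoters of RNA polymerase III, was found on either strand in 19 of 31 (61.3%) and in 2.60% of all autosomal peaks. Shared peaks had a median shift of -4.93 (-17.1 to 0.709), with 4 of 15 higher in clone 3, while 232 distal peaks of like GC content had a median of 10.4 (6.59 to 14.9). These intervals did not overlap.

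Family 7 was satellite sequence at the start of chromosome 9, between 3000036 and 3038252, with 27 of 31 peaks matching GSAT_MM, the major satellite. The representative, at chr9:3000036-3001578 and 115 bp from the start of Gm10722, had clone 3 values of 87.9 and 78.7 (99.7th percentile). Shared peaks were 14 in each list, with 12 of 14 higher in clone 3 and a median shift of 2.60 (0.0421 to 9.55). WT-only members were 2, at Gm10719 (values 17.1 and 16.3) and Gm10721 (12.8 and 14.3), and clone 3-only members 1. Shared peaks of the satellite had a median at the 87.3rd percentile in clone 3. In WT the medians were 79.3 for shared and 26.3 for the 2 WT-only peaks, though their percentiles overlapped.

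The other members of highest score came mostly from smaller families. Among clone 3-only members, the peak at chr3:115609301-115610422 lay in an intron of Dph5, an enzyme of diphthamide synthesis, with values of 26.1 and 26.9 (79.8th percentile), and all of its words recurred inside the peak. The peak at chr13:104330736-104331100, 144 kb from Gm16416, had 25.9 and 25.4 (78.1st percentile), and that at chr15:81096495-81096794, 30.7 kb from Mchr1, had 19.7 and 29.7 (75.9th). Both belong to family 17, GC-rich sequence (median 71.1%) with 7 clone 3-only and 1 WT-only peak among its 14. Clone 3-only peaks were 7 of its 10 clone 3 peaks (39.7 to 89.2%), an interval above the background of 28.4%. WT-only peaks were 1 of its 4 WT peaks (4.56 to 69.9%), an interval that held the background of 26.0%. The peak at chr10:29655599-29656090, 265 kb from Cenpw, had 28.1 and 21.6 (76.1st percentile). Among WT-only members, that at chr4:130687651-130688420, 188 kb from Matn1, had 24.4 and 23.7 (67.2nd percentile). It was in family 12, with 7 WT-only and 1 clone 3-only peak. WT-only peaks were 7 of the 14 WT peaks of family 12 (26.8 to 73.2%), an interval just above the background of 26.0%. Clone 3-only peaks were 1 of its 8 clone 3 peaks (2.24 to 47.1%), an interval that held the background of 28.4%. The RLTR13G match of 97.8% at chr8:131270525-131271086, 22.6 kb from Itgb1, had 24.1 and 23 (65.6th percentile) and lay 0.675 kb from a clone 3 peak. Among shared members without telomeric repeats, the peak at chr2:69193447-69193865, 13 kb from Abcb11, was the highest in clone 3, with values of 122 and 118, and had 111 and 114 in WT.

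Motif content differed between the families. Peaks of a family were grouped by sequence, so a motif shared within a family follows in part from the grouping. The sequence CCAAT, bound by NF-Y, stood in all 73 peaks of family 3, in 115 of 125 peaks of family 2 (92.0%) and in 27 of 28 of family 8 (96.4%), but in 15 of 270 of family 1 (5.56%) and in 35.0% of all autosomal peaks. The octamer, found in families 1 and 4, was absent from the windows of families 2, 3, 5, 6, 7 and 8. All 4 motifs were counted on both strands, and none contains another.

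Telomeric repeats gave the 2 highest scores among the shared members. Members with at least 10 copies of TTAGGG or its complement were 12 shared in clone 3, 14 shared in WT, 1 clone 3-only and 0 WT-only, with an upper bound of 2.91% of WT-only members. The median percentile of the shared ones was 98.3 in clone 3 and 99.3 in WT, and 3 in each list lay within 10 kb of a chromosome end.

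The peak at the end of chromosome 2, 21.8 kb from Gm14496 and with 94 copies of the repeat, had clone 3 values of 205 and 198 and WT values of 198 and 210. The one at the end of chromosome 11 had 106 and 106 in clone 3 and 102 and 104 in WT. The other end peak, on chromosome 18, also stood at the top of both lists. Telomeric repeats inside chromosomes varied. The peak at chr3:148715446-148715977, 63.4 kb from Lphn2, had 47.3 and 68.2 in clone 3 against 144 and 141 in WT, and both ranked above the 98th percentile. The peak at chr2:57481777-57482261, 368 kb from Galnt5, had 108 and 117 in clone 3 and 107 and 116 in WT. That at chr3:21597225-21597599, 378 kb from Tbl1xr1, had 43.5 and 37.2 in clone 3 and 39.0 and 43.3 in WT. The peak near Ppp1r9a at chr6:4873702-4874294 had 150 and 120 in WT and was shared, so a clone 3 peak overlapped it. The clone 3-only telomeric member, at chr9:96753322-96753653 and 1.5 kb from Acpl2, had 17.4 and 22.9 (60.8th percentile). Values of the lists are not on a common scale, so these are given side by side.

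A pair of families was found in 1 list only. Family 24 had 7 peaks, all clone 3-only, between 3207055 and 8322540 on chromosome 14, with percentiles from 5.27 to 57.6. In 6 of the 7 a WT peak lay 0.450 to 1.05 kb away, so accessibility was called close by, and the exception near Gm3358 was 143 kb from one. Family 28 had 5 peaks, all WT-only, between 114466515 and 114586857 on chromosome 6 near Hrh1 and Atg7, from the 5.98th to the 31.3rd percentile, at 252 to 372 kb from the nearest clone 3 peak. These 5 lay in the longest WT-only run on the autosomes, of 10 peaks from 113802307 to 114833723 (1031 kb). The other 5 peaks of the run were not members, and 2 of them were nearest to Atp2b2, a calcium pump. Family 28 thus took its place in a stretch in which single-copy peaks were missing from clone 3 as well.

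Members of 1 list were unevenly spread over chromosomes. Chromosome 1 held 14 clone 3-only and 1 WT-only member, beside 661 and 352 peaks of all kinds. Chromosome 18 held 9 and 1, beside 211 and 143. Chromosome 2 held 12 and 27, most of the latter in the array, beside 527 and 459. Chromosome 14 held 22 and 11, beside 246 and 212.

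In score, members of 1 list were low and shared members high, as were single-copy peaks. In clone 3 both medians stood above those of single-copy peaks of the same set. Clone 3-only members stood at a median of the 28.4th percentile (20 to 33.8) against the 18.5th for single-copy clone 3-only peaks, WT-only members at the 19.9th (15.3 to 28.5) against the 20th, and shared members at the 70th (66.7 to 73.6) against the 62.5th in clone 3. The median GC content was 47.9%, 49.4% and 47.4% in clone 3-only, WT-only and shared members, below the 52.1%, 55.4% and 57.1% of single-copy peaks. The ratio of observed to expected CpG was 0.219 (0.163 to 0.275) against 0.241 in clone 3-only members and single-copy peaks, 0.297 (0.257 to 0.353) against 0.353 in WT-only ones, and 0.309 (0.279 to 0.343) against 0.504 in shared ones. The gap was thus clear in the shared set alone, since the other intervals held or reached the single-copy value. In 20 clone 3-only (12.6%), 11 WT-only (8.59%) and 46 shared members (12.5%), 50% or more of the words recurred inside the peak, compared with at most 0.378% of single-copy peaks in any set. By copies in the genome WT-only members were the most repeated, with 6.68% of their words found once in the genome in the median (2.93 to 9.88), against 14.6% (8.36 to 17.4) for clone 3-only members. Those intervals overlapped. Words with 10 copies or more made up 81.8% (75.2 to 85.6) and 67.4% (62.0 to 70.9) in the median, and these intervals did not. The part of read mapping in these values was not tested.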

How the data were processed

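ATAC-seq peaks of WT and Spen KO clone 3 mESCs were taken from 1 list per line. The authors' pipeline ran CutAdapt, Bowtie2 on mm9, a filter for uniquely placed pairs and Picard against duplicates. A second alignment put multi-mapping reads at a random place, and the source alignment of the lists is not given in the sources used here. MACS2 (q-value threshold 0.01) was run on both replicates of a line, and peaks with an IDR above 0.05 were dropped. Tool versions are not given in the sources used here. The authors deposited, per peak, its position and length, 2 replicate values (other unit, no named scale) and the IDR, with coordinates counted from 1. Reads were not used here, and no column was left unmapped. The replicates of a line are merged in its list, and the number of reads is unknown.

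Word copies were counted in mm9 with Python 3.11.15, numpy 2.4.6 and numba 0.67.0 over the placed chromosomes. Families and matches used megablast of BLAST 2.17.0 (80% identity over 100 bp, e-value up to 1e-10). Genes are from the GENCODE annotation of mm9, with distances measured between peak midpoints and coding starts. Zinc finger genes had at least 3 C2H2 matches in their translated transcripts. Gene names that RefSeq supplies come from GRCm38.p6 and carry no coordinates here. Repeat names come from 122 of 185 elements that the study lists with mm9 coordinates, in a shortened copy, so no enrichment was tested. Motifs were searched on both strands in the middle 300 bases. Shares carry Wilson intervals, differences of shares Newcombe intervals, and medians binomial intervals, all at 95%. Tables and intervals used pandas 2.3.3 and scipy 1.17.1, sequences pysam 0.24.0 and samtools 1.23.1, and plots matplotlib 3.10.9. Word counts, families and intervals were checked on simulated data, and overlaps were not.

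The members and the lists of elements, motifs and genes were chosen with earlier results of these data known. Named peaks are the representatives of the 8 largest families and the 5 members of highest score in each set. Named genes are those nearest to them and those with a member of 1 list within 1 kb of a coding start, at most 25 in each set. Family 24, family 28, the array peaks over 1 kb from a start, the genes of shared array peaks and the telomeric peaks beyond this rule were named after their values were seen.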

Additional observations from a re-analysis of the deposited data

How the results depend on the processing

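Counts of members and the shares found in 1 list both moved with the rule and with the threshold on peaks. With 80% of the words multi-copy there were 45 clone 3-only, 67 WT-only and 117 shared members, and 27.8% of the clone 3 members and 37.2% of the WT members were found in 1 list. With 30% of the words there were 412, 237 and 934, with 30.6% of the clone 3 members and 20.1% of the WT members found in 1 list. At least 50 copies gave 61, 54 and 133, and at least 5 copies gave 266 clone 3-only and 636 shared members. Words of 36 bases gave 79 clone 3-only, 91 WT-only and 188 shared members, with 29.6% of the clone 3 members and 33.1% of the WT members found in 1 list. The order of the lists thus turned under 80% of the words and under 36-base words, with more WT-only than clone 3-only members and a higher WT share. At 90% identity to the LINE families instead of 80% more peaks entered, giving 672 clone 3-only and 746 shared members, with 47.4% of the clone 3 members and 19.7% of the WT members found in 1 list. An IDR of at most 0.01 left 50 clone 3-only and 44 WT-only members (14.3% and 12.8% of their lists). Scores at or above the list median left 37 and 16 (12.1% and 6.18%).

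Near coding starts, 100 bp gave 1.26%, 7.03% and 5.96% of clone 3-only, WT-only and shared members. In the same order 5000 bp gave 15.7%, 30.5% and 18.4%. Among peaks at or above the list median the share was 0 of 37 clone 3-only members, with an upper limit of 9.41%. Without family 3 it was 12% of WT-only and 7% of shared members. At 90% identity, ERV1 matches fell to 6.29%, 4.69% and 11.1%, in the order clone 3-only, WT-only, shared. The rank shift was 8.01 with replicate 2 alone and 0.518 without families 1 and 2. The cause of these moves was not tested, beyond what the settings themselves add or remove. The alternatives that leave out family 3, families 1 and 2 or peaks near starts, and the count of words over all mm9 sequences, were chosen after seeing the data. Of the 131 alternative values, 90 stayed within the spread or within 1.5 times the reported value.

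No paired analysis was possible because each line has 1 list in which the replicates are merged. For the same reason the lists could not be made again without a replicate. The rank shift alone was also computed with the value of each replicate. Intervals cover counting error only, depth is unknown, and a peak missing from a list can lie just below its threshold.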
